A study of Homo sapiens with 6 samples.

Results

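The 10 genes described here encode some of the parts of the human SWI/SNF (BAF) chromatin remodelling complex that exist as interchangeable paralogs. They are the ATPases SMARCA2 and SMARCA4, the actin-related subunits ACTL6A and ACTL6B, the PHD-finger subunits PHF10, DPF1, DPF2 and DPF3, and the subunits SS18 and SS18L1. The genes were taken by role, and each was read from its probe set naming that gene alone, chosen by the highest mean log2 level over all 6 arrays. That mean, which ignores the treatment, was the measured value by which probe sets were selected. Each of the 10 genes had exactly 1 such probe set, so none was left out, and they make up 10 of the 18417 genes tested. No low-level filter was applied. That SMARCA2, ACTL6B and DPF1 differed after SAHA was already known when the set was proposed, so their direction is not independent evidence for a pattern.

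The cells were A204, an established human rhabdoid tumour line, a tumour type in which the core subunit SMARCB1 is typically lost. On 3 arrays they had been exposed for 12 h to SAHA (vorinostat), an inhibitor of histone deacetylases, and on 3 control arrays they had received DMSO, the solvent, by the treatment protocol, although another label gives the control treatment as none. The SAHA concentration is printed with an incomplete unit and is therefore not given. All arrays came from this 1 line grown in serum-containing medium. The labels do not state separate cultures, so p-values cover no more than array-to-array spread, possibly of technical origin. Median signal per array was 142 to 149 on the linear scale, and correlations across probe sets were 0.9965 to 0.998 within a group and 0.9728 to 0.9738 between groups.

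SWI/SNF complexes use the energy of ATP to move or evict nucleosomes, and each complex carries either SMARCA2 (BRM) or SMARCA4 (BRG1) as its motor. In mouse neural development the progenitor complex, with the products of Actl6a, Phf10 and Ss18, gives way to a neuronal complex with those of Actl6b, Dpf1, Dpf3 and Ss18l1 as cells leave the cell cycle. Rhabdoid tumours and several carcinomas can carry little SMARCA2 without a mutation of the gene, and HDAC inhibitors have been used to bring it back in cell lines.

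The 5 members with the largest changes are shown first by their promoters, because 3 of them were higher and the other 2 lower after SAHA. Each line gives the 250 bases before the most upstream start in the RefSeq table (GRCh38.p14), 5′ to 3′ on the gene's strand. Capitals mark matches on either strand to GGGCGG (the GC box), to CCAAT (the CCAAT box), to TATAAA (the TATA box), to AGCACC (the left part of the site bound by the neuronal gene repressor REST) and to GGACAG (the right part of that site).
SMARCA2 (plus strand, chr9:2015097-2015346): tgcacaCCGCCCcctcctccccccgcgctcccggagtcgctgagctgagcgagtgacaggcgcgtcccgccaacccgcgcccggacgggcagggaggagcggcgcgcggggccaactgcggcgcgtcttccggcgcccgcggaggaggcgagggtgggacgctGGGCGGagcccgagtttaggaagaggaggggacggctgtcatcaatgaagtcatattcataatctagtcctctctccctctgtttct
ACTL6B (minus strand, chr7:100656449-100656698): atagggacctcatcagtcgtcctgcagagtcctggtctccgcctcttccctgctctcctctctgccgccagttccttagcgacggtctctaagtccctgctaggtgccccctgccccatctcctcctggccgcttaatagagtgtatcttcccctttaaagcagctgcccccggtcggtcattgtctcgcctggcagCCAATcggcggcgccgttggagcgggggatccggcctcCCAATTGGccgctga
DPF1 (minus strand, chr19:38229696-38229945): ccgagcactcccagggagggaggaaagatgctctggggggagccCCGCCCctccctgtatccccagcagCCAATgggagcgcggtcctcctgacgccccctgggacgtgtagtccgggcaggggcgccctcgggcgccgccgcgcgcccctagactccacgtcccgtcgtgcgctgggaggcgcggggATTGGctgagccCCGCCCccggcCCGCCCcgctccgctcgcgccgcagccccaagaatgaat
PHF10 (minus strand, chr6:169724501-169724750): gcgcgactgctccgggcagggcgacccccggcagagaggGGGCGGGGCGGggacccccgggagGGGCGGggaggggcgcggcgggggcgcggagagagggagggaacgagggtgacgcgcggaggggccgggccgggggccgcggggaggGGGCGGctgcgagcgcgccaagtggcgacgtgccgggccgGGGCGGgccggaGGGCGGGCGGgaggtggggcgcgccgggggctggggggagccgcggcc
SS18 (minus strand, chr18:26091220-26091469): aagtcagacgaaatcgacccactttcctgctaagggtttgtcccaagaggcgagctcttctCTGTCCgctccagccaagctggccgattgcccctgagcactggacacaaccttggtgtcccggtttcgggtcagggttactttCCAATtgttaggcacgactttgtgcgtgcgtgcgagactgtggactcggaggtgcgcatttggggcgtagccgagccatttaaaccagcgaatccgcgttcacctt

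None of the searched motifs was matched in all 5 windows shown, and other elements were not searched for. SMARCA2 had 2 GC boxes, DPF1 3 and PHF10 7, some of them overlapping, whereas ACTL6B and SS18 had none. Of all 35116 promoter windows of this length, 42.6% held a GC box. CCAAT was matched 3 times in ACTL6B, with 2 of the matches overlapping, 2 times in DPF1 and 1 time in SS18, and 11240 of all windows held any match. Both parts of the REST site in order and 2 bases apart, searched on both strands, were in 0 of the 15 windows listed for 9 of the members and in 18 of all windows. The right part alone was in the SS18 window and in 17.2% of all windows, the left part in none of the 5 windows shown and in 4563 of all, and the TATA box likewise in none shown and in 10.7% of all. CG dinucleotides numbered 29 in SMARCA2, 16 in ACTL6B, 28 in DPF1, 39 in PHF10 and 18 in SS18, where the median of all windows was 11. SMARCA2 has 4 listed starts and SS18 has 2, and which of them the arrays' probes read is not given. A match of letters describes the window and does not show a bound factor.

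Both ATPase genes changed, in opposite directions. SMARCA2, one of the alternative motors, had log2 signals of 7.54, 7.42 and 7.57 on the SAHA arrays, against 6.05, 5.81 and 5.88 on the control arrays. All SAHA values lay more than 1 log2 unit above all control values. SMARCA2 rose 3.02-fold, by 1.60 on the log2 scale (95% interval 1.43 to 1.77, adjusted p = 5.06e-07, limma). Only 2.01% of all genes had a higher change. In bulk RNA, a change in the share of expressing cells and a change in RNA per cell cannot be told apart.

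SMARCA4, the other motor, had 10.17, 10.18 and 10.27 in SAHA, against 10.52, 10.61 and 10.53 in control. The groups did not overlap, but the fall was small beside the rise of its paralog. SMARCA4 fell by 0.34 on the log2 scale, to 0.789 times the control signal (adjusted p = 0.0004, limma).

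Among the actin-related subunits, the neuronal form was higher and the progenitor form did not pass the test. ACTL6B (BAF53B), which is needed for dendrite growth in mouse neurons, had 8.62, 8.53 and 8.54 in SAHA, against 6.45, 6.48 and 6.95 in control. The SAHA arrays were close together, and control replicate 3 lay above the other two controls yet far below every SAHA array. ACTL6B rose 3.83-fold, by 1.94 on the log2 scale (95% interval 1.65 to 2.22, adjusted p = 3.29e-06, limma), the highest change of the 10 genes. Without control replicate 3, the change was 2.10.

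ACTL6A (BAF53A), the form of dividing cells, had 10.42, 10.49 and 10.40 in SAHA, against 10.55, 10.43 and 10.72 in control. The groups overlapped. Its change was -0.13 (95% interval -0.30 to 0.05, adjusted p = 0.181, limma), an interval that holds a fall of up to 0.30 as well as no change. Without control replicate 2, the lowest of the controls, ACTL6A was called lower (-0.20, adjusted p = 0.0393, limma).

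**Figure D1:**
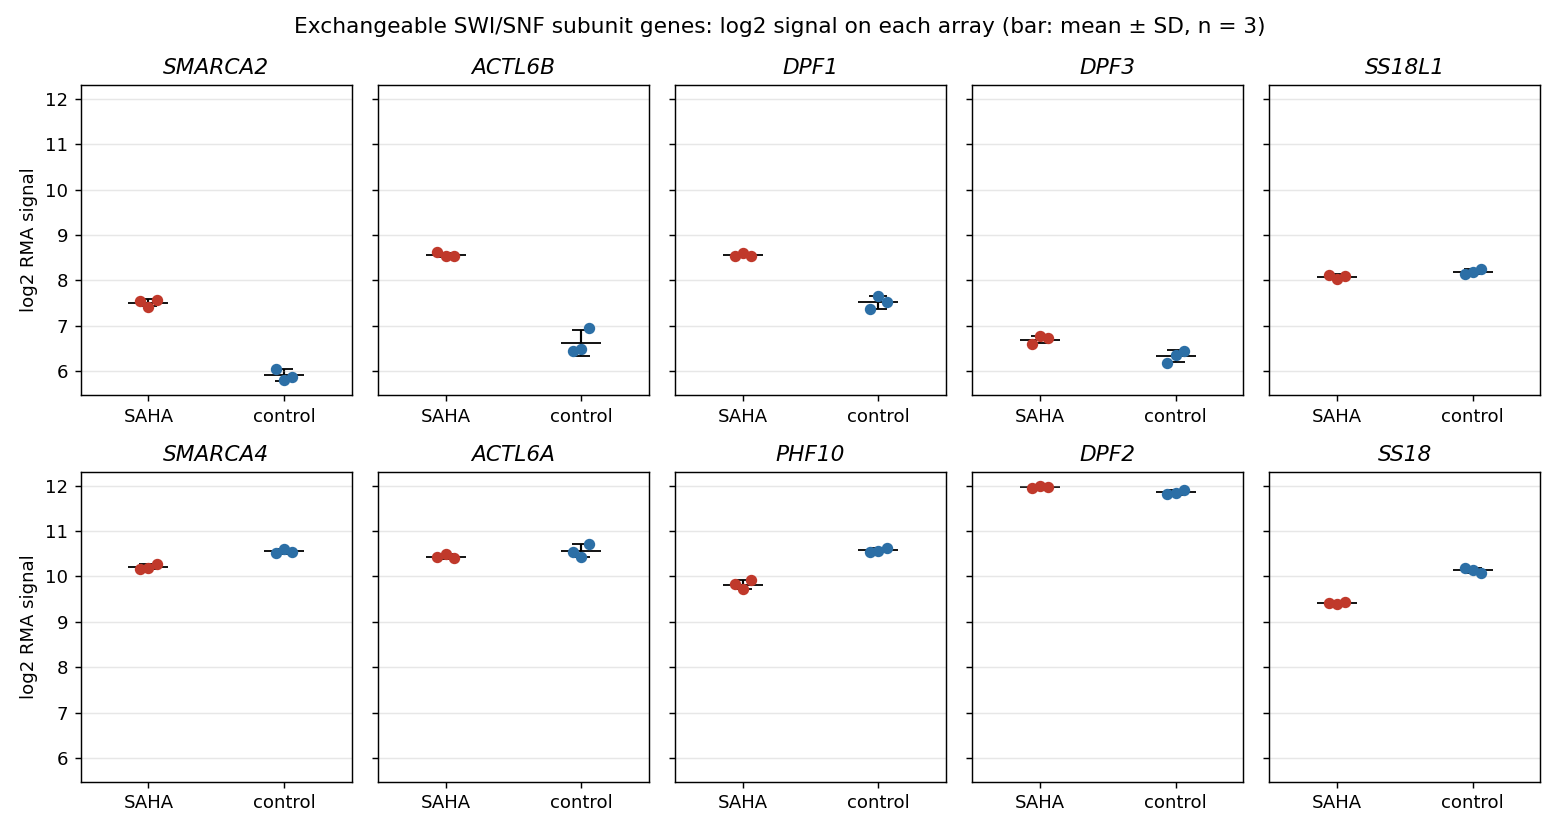
Log2 RMA signal (vertical axis) of the 10 genes on each SAHA array (red) and control array (blue), with the mean ± SD of 3 arrays as a bar and, in each column, a SMARCA2-type or neuronal form above a paralog. SMARCA2, ACTL6B and DPF1 show the widest gaps between groups, while ACTL6A is the gene whose groups overlap.

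The PHD-finger subunits read modified histone tails and divide into the progenitor form PHF10 (BAF45A), the neuronal forms DPF1 (BAF45B) and DPF3 (BAF45C), and the broadly expressed DPF2 (BAF45D). PHF10 had 9.82, 9.72 and 9.92 in SAHA, against 10.54, 10.57 and 10.63 in control. With every SAHA array below every control array, PHF10 fell by 0.76 on the log2 scale, to 0.591 times the control signal (adjusted p = 1.11e-05, limma). This was the lowest change among the 10 genes, and 8.47% of all genes had a lower one.

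DPF1 had 8.53, 8.60 and 8.54 in SAHA, against 7.37, 7.65 and 7.52 in control. The groups were separate, and DPF1 rose 2.06-fold, by 1.04 (95% interval 0.87 to 1.21, adjusted p = 4.9e-06, limma). DPF3, which in mouse also serves heart and skeletal muscle, had 6.61, 6.77 and 6.72 in SAHA, against 6.18, 6.36 and 6.44 in control. Its groups came close without overlapping. DPF3 rose by 0.37 (95% interval 0.19 to 0.55, adjusted p = 0.0031, limma). The interval of DPF3 lay wholly below that of DPF1, and the difference between them was not tested.

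DPF2 had 11.96, 12.00 and 11.96 in SAHA, against 11.81, 11.83 and 11.91 in control, a gap without overlap. Its change of 0.12 (95% interval 0.02 to 0.23) passed the threshold narrowly (adjusted p = 0.0493, limma). That call ended in 9 of 14 alternatives, with adjusted p-values from 0.00724 to 0.14 over all of them. It was lost when any 1 SAHA array, control replicate 1 or control replicate 2 was left out, and under each of the 3 other scalings tried.

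SS18 and its paralog did not show the neuronal form rising. SS18, known from the fusion gene of synovial sarcoma, had 9.41, 9.39 and 9.45 in SAHA, against 10.18, 10.15 and 10.07 in control. The groups lay well apart, and SS18 fell by 0.72, to 0.607 times the control signal (adjusted p = 3.64e-06, limma). SS18L1 (CREST), a calcium-responsive coactivator of neurons, had 8.12, 8.02 and 8.11 in SAHA, against 8.15, 8.19 and 8.25 in control. These values did not overlap, but the change of -0.11 (95% interval -0.22 to 0.0026) missed the threshold (adjusted p = 0.0848, limma).

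In all, 5 of the 10 genes were called higher, 3 lower and 2 in neither direction at an adjusted p under 0.05. Over all 18417 genes tested, 60.0% were called, 31.1% higher and 28.9% lower. The 3 lower calls among the 10 genes are thus near the rate of the whole table, and the 5 higher calls are above it. Those 5 include SMARCA2, ACTL6B and DPF1, which were known to differ when the set was proposed. They also include DPF2, whose call was lost in 9 of 14 alternatives. SAHA and control values did not overlap for 9 of the 10, against 65.4% of all genes. At least 2-fold rises were called for 3 of the 10 and for 5.84% of all genes. A 2-fold fall was called for 0 of the 10 by limma, where 3 genes had an unadjusted p under 0.05 in that direction and 5.42% of all genes had such a fall. The median change was 0.01 for the 10 genes, whose rises and falls offset each other, and -0.0027 for all genes. The deposited values had been quantile normalized, which draws the distributions of the arrays together. A median near 0 over all genes can come from that scaling, and every change given here is relative to it.

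**Figure D2:**
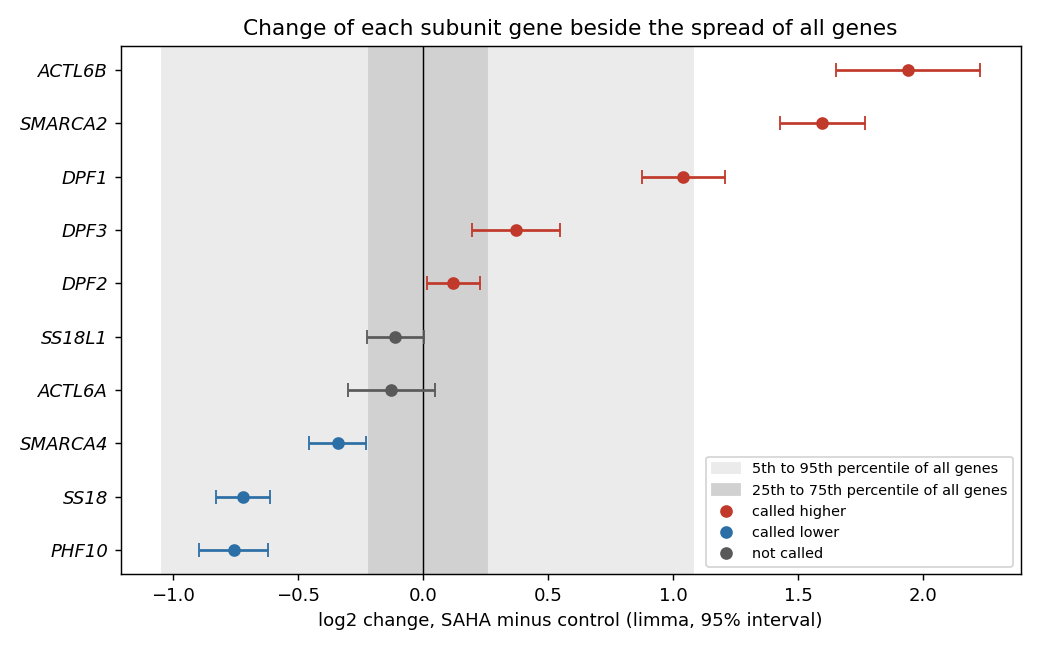
Log2 change, SAHA minus control, of each of the 10 genes (horizontal axis) with its 95% limma interval, over grey bands from the 25th to the 75th and from the 5th to the 95th percentile of all genes. ACTL6B at 1.94 and SMARCA2 at 1.60 lie beyond the 95th percentile of all genes (1.08), DPF1 at 1.04 lies just inside it, and PHF10 at -0.76 lies inside the 5th percentile (-1.05).

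The level at which the rising genes began limits how their folds can be read, since no detection call was available. In SAHA, 41.3% of all genes had a dimmer probe set than SMARCA2, and in control 20.5% did. For ACTL6B, the shares were 56.4% in SAHA and 30.1% in control, and for DPF3 they were 29.5% in SAHA and 25.8% in control. These are ranks of probe brightness, not of transcript number. Where the control signal is background, the true fold is larger than the one given. With 32 added to each linear signal, which compresses dim values, SMARCA2 still rose by 1.22 and ACTL6B by 1.65, both called.

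Each paralog pair was next followed as a log2 signal ratio within each array. Probe sets differ in brightness for the same amount of RNA, so the level of a ratio does not say which paralog was more abundant, and only its change between groups can be compared. For SMARCA2 over SMARCA4 the log2 ratio was -2.63, -2.76 and -2.70 in SAHA, against -4.46, -4.80 and -4.65 in control. The ratio was thus higher on every SAHA array, by 1.94 ± 0.10 (SE, n = 3 arrays per group), or 3.83-fold. The rise of SMARCA2 made up 82.3% of this shift and the fall of SMARCA4 17.7%.

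For ACTL6B over ACTL6A the log2 ratio was -1.80, -1.96 and -1.86 in SAHA, against -4.10, -3.95 and -3.77 in control, a shift of 2.06 ± 0.11 (SE), or 4.18-fold. Of it, 93.8% came from ACTL6B. For DPF1 over PHF10 the ratio was -1.29, -1.12 and -1.38 in SAHA, against -3.17, -2.91 and -3.11 in control. This pair moved from both sides, with 57.8% of its shift of 1.80 ± 0.11 (SE) due to DPF1 and 42.2% to PHF10.

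DPF3 over PHF10 averaged -3.12 ± 0.15 in SAHA and -4.25 ± 0.10 in control (SD, n = 3 each), a shift of 1.13 ± 0.10 (SE), and 67.1% of the shift was the fall of PHF10. Against the broadly expressed DPF2, the ratio of DPF1 shifted by 0.92 ± 0.08 (SE) and that of DPF3 by 0.25 ± 0.07 (SE). The last was the smallest of the 7 shifts and was 0.15 with 32 added to the signals and 0.17 after a further quantile normalization.

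SS18L1 over SS18 was -1.29, -1.36 and -1.34 in SAHA, against -2.03, -1.96 and -1.82 in control. Although this ratio also lay higher in SAHA, by 0.61 ± 0.07 (SE), SS18L1 itself did not rise, and the fall of SS18 exceeded the whole shift. In all 7 pairs the 3 SAHA ratios lay above the 3 control ratios, and the exact two-sided permutation test gave p = 0.1 for each, also after adjustment over the 7 pairs. With 3 arrays per group 0.10 is the smallest p that this test can give, so no pair can pass 0.05. Several pairs share a gene and are not separate observations. Some have SMARCA2, ACTL6B or DPF1 as the upper gene, which were known to differ when the set was proposed. How often other gene pairs separate in this way was not computed. Among single genes, SAHA and control values did not overlap for 65.4%.

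**Figure D3:**
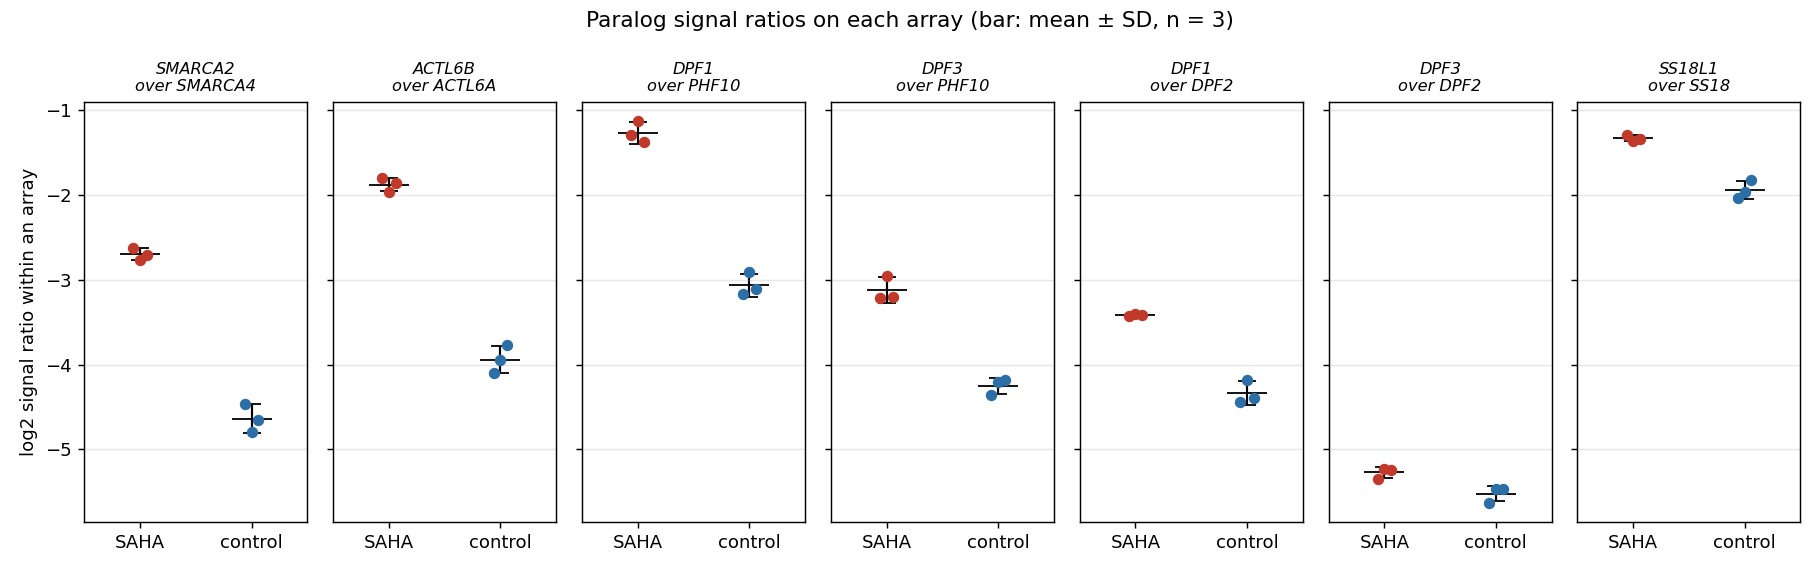
Log2 signal ratio within an array (vertical axis) for the 7 paralog pairs, with SAHA arrays in red, control arrays in blue and bars for the mean ± SD of 3 arrays. Every pair is higher in SAHA without overlap, from a shift of 0.25 for DPF3 over DPF2 to 2.06 for ACTL6B over ACTL6A, and heights of different pairs cannot be compared.

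Other listed SWI/SNF subunit genes, which do not all belong to the same form of the complex, were mostly lower. Of 21 other subunit genes listed, 20 were tested, 15 were called lower, 2 higher and 3 in neither direction, beside 28.9% lower and 31.1% higher over all genes. Their median change was -0.49. ARID2, the DNA-binding subunit of the PBAF form, fell by 1.31 (adjusted p = 1.12e-07, limma), and ARID1B and ARID1A, its counterparts in the BAF form, fell by 1.23 and 0.66. BCL7A, a small accessory subunit, fell by 0.94. SMARCB1 averaged 7.22 ± 0.05 in SAHA and 7.74 ± 0.04 in control (SD, n = 3 each). Whether that signal is transcript or background is not known without a detection call. The 2 genes called higher were BCL11A and BCL7B, at 0.44 and 0.29, and both are named after their values were seen. BCL11A is a zinc-finger protein of neurons and blood that joins the complex. Most of the other subunit genes on this list were thus called lower, as were the members SMARCA4, PHF10 and SS18. The members SMARCA2, ACTL6B and DPF1 rose, but that they differed was known when the set was proposed. BRD7, at -0.15, was not called after a further quantile normalization (adjusted p = 0.14) or cyclic loess (adjusted p = 0.0719). BICRA, at 0.14, was not called. It was called higher after a further quantile normalization, median centring or 32 added to the signals (adjusted p = 0.0329, 0.0392 and 0.0393, limma).

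Genes listed as possible regulators of the change of subunits in neurons were examined next. REST, which silences neuronal genes outside the nervous system, averaged 10.06 ± 0.03 in SAHA and 10.31 ± 0.04 in control, a fall of 0.25 (SD, n = 3 each, adjusted p = 0.00115, limma). Genes of its partner proteins did not all go the same way. RCOR2, a corepressor of the CoREST family, fell by 0.86, while RCOR1, named after its value was seen, rose by 0.33. CTDSP1 and CTDSPL, phosphatases that REST recruits, fell by 0.81 and 0.92. PTBP2, a splicing repressor of young neurons, averaged 7.60 ± 0.07 in SAHA and 9.47 ± 0.21 in control (SD, n = 3 each) and fell by 1.86, the largest change of the list. Of the 13 genes tested, 7 were called lower, 1 higher and 5 in neither direction, with a median of -0.25, beside 28.9% lower and 31.1% higher over all genes.

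Those 5 were the hairpin genes of the brain microRNAs miR-9 and miR-124, which in mouse repress Actl6a through its transcript. Their changes ran from -0.10 for MIR9-3 to -0.02 for MIR124-2, and none was called, except that MIR124-3 was called lower after a further quantile normalization (-0.14, adjusted p = 0.031). The arrays read hairpin probe sets, of which MIR124-1 was dimmer than nearly all genes (1.8% were dimmer in control), and mature microRNAs were not measured.

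Markers of neurons were examined beside the neuronal subunits. Of 15 tested, 10 were called higher and 5 in neither direction, with a median of 1.45 and 8 rises of at least 2-fold. Over all genes 31.1% were called higher and 5.84% were at least 2-fold higher. The list, like the others, was chosen with earlier results of these data known, so its share is not independent evidence. None was called lower by limma, and 0 had an unadjusted p under 0.05 in that direction, although RBFOX3 was called lower after a further quantile normalization (-0.18, adjusted p = 0.0477). ELAVL3, a neuronal RNA-binding protein, rose by 2.95, MAP2, the dendrite microtubule protein, by 2.42, SYP, the synaptic vesicle protein synaptophysin, by 2.13 and NEFM, a neurofilament, by 1.83. RBFOX3 (NeuN), at -0.08, DCX, at -0.07, and GAP43, at -0.03, did not pass, and these names were picked once the values were known. The summed linear signal of the 15 markers was 11029 to 11445 on the SAHA arrays and 3101 to 3762 on the control arrays. That sum rested largely on INA and SYT1, which averaged 12.31 and 11.14 in SAHA and 10.48 and 9.63 in control on the log2 scale. RMA signals do not reach 0 and no detection call was available, so they do not show which of the markers were expressed. The part of these changes in those of the subunit genes was not tested.

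Markers of neural progenitors went both ways. Of 8 genes, 3 were called higher (SOX2 by 0.53, NES by 0.46 and PROM1 by 0.20), and 1, the RNA-binding protein gene MSI1, was called lower, by 0.43, beside 31.1% higher and 28.9% lower over all genes. The label of the line was checked against its own markers. Of the 4 rhabdoid markers, VIM, KRT8 and KRT18 were each brighter than at least 98.9% of genes in control. SMARCB1, listed because it is typically lost in this tumour type, was brighter than 45.3%. That rank does not show a loss, and without a detection call transcript and background cannot be told apart. After SAHA, SMARCB1 fell by 0.51, KRT18 by 0.21 and VIM by 0.18. KRT8 did not pass (-0.07), but was called lower after cyclic loess (-0.12, adjusted p = 0.0295, limma). The muscle regulators MYOD1, MYOG and MYF5 did not pass (-0.12, 0.12 and -0.14), although a further quantile normalization called MYOD1 and MYF5 lower (-0.25 and -0.18), while DES rose by 0.76 and CKM by 0.45. MYH3, an embryonic myosin, did not pass (-0.15), but was called lower after a further quantile normalization (-0.23, adjusted p = 0.0131) and cyclic loess (-0.18, adjusted p = 0.0381, limma). Blood markers summed to 84.6 to 91.9 in SAHA and 86.1 to 93.8 in control. Endothelial markers summed to 1562 to 1630 in SAHA and 6777 to 7047 in control, almost wholly through CDH5.

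**Figure D4:**
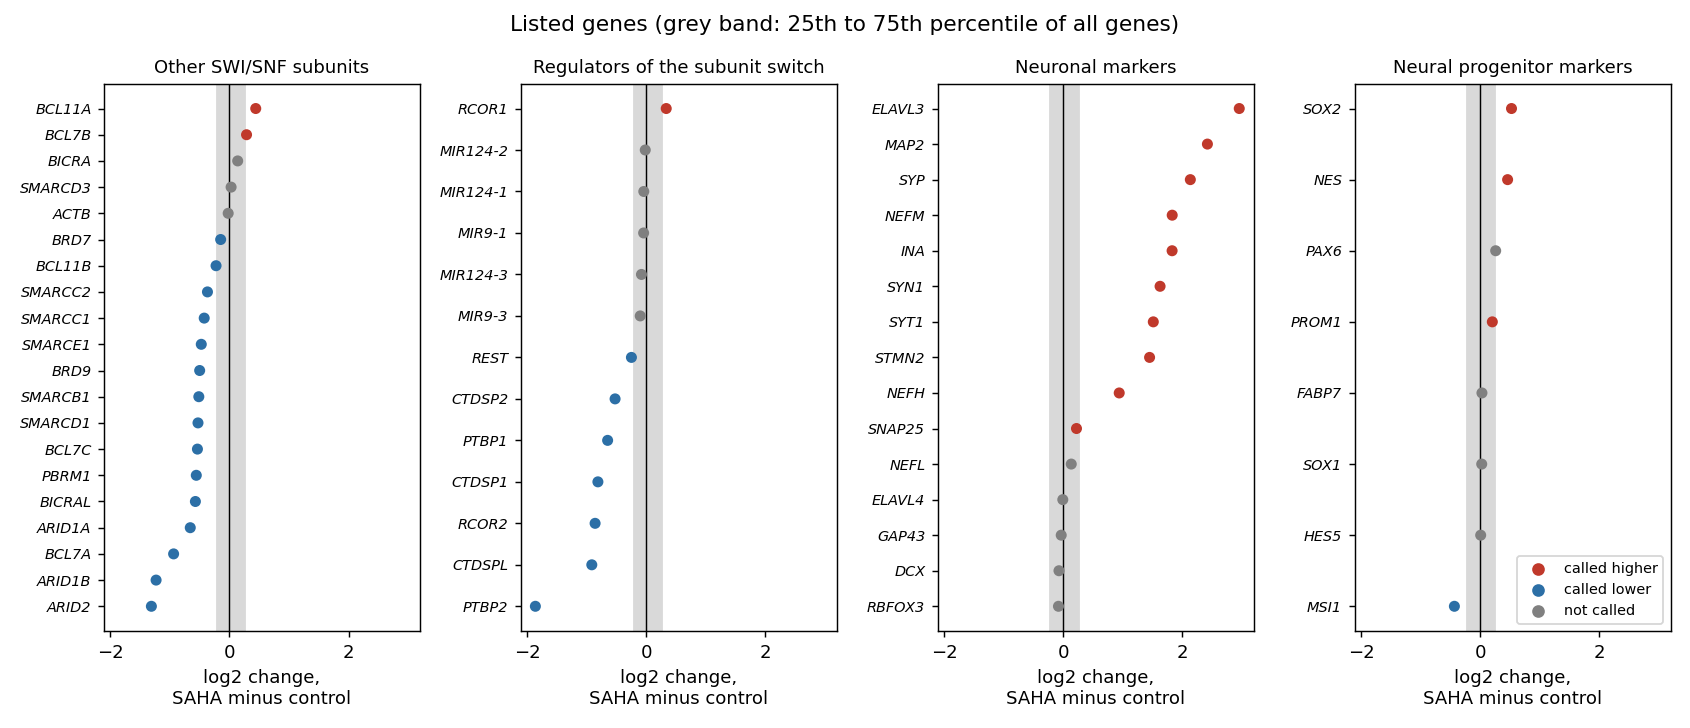
Log2 change, SAHA minus control (horizontal axis), of each tested gene in 4 lists, with genes called higher in red, called lower in blue and not called in grey, over a band for the middle of all genes (-0.22 to 0.26). Most other subunits lie left of 0, down to -1.31 for ARID2, whereas 10 of 15 neuronal markers were called higher, up to 2.95 for ELAVL3.

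The genes whose 6 values, each centred on its own mean, lay nearest to those of SMARCA2 were DISP2, CADM4, FABP6, STX3 and SNX32, at Euclidean distances of 0.15 to 0.19 log2 units over 6 arrays. CADM4, an adhesion molecule, averaged 10.83 ± 0.03 in SAHA and 9.18 ± 0.11 in control, and STX3, a syntaxin of membrane fusion, averaged 10.12 ± 0.04 in SAHA and 8.55 ± 0.03 in control (SD, n = 3 each). Nearest to ACTL6B were IL1RN, THSD1, IFITM1, CDH15 and ARRDC3, at 0.20 to 0.26. With 6 arrays in only 2 groups, such closeness mainly means a change of like size.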

How the data were processed

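RNA of A204 cells was measured on 6 Affymetrix whole-transcript arrays, prepared with the Ambion WT Expression Kit per the labels' protocols. The authors deposited signal intensities made with RMA (background correction, quantile normalization and summarisation), per the submitters' processing notes. For its version and for the annotation build, no value is given in the sources used. The values, 6.56 to 20338, were linear, so log2 was taken. Of 33252 probe sets, 19460 named 1 gene, 1754 several and 12038 none in the platform annotation. Symbols were updated through Entrez identifiers, and 19429 matched.

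SAHA was compared with control over all 18417 genes (limma 3.58.1, R 4.3.3, lmFit and eBayes, Benjamini-Hochberg, two-sided), with no dim gene left out. Paralog ratios were tested by exact permutation (SciPy 1.17.1). The fit was tested on simulated data. Members and lists were chosen with earlier results of these data known. The text names all members, SMARCB1, REST, the 4 called genes of each list with the largest changes, and the 5 nearest profiles of SMARCA2 and ACTL6B. Other list genes and cell type markers in the text were picked once their values were known. SMARCD2, MIR9-2 and TUBB3 were not analysed here. The number of arrays limits precision. The alternatives were other scalings, an offset of 32, a filter at a mean of 6, the mean of probe sets, trended and robust variance, the replicate block and each array left out.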

Additional observations from a re-analysis of the deposited data

How the results depend on the processing

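Over 14 alternatives for the 10 member changes and 12 for the 7 ratio shifts, no value turned its direction. SMARCA2, SMARCA4, ACTL6B, PHF10, DPF1, DPF3 and SS18 stayed called, and SS18L1 stayed uncalled (adjusted p 0.0648 to 0.253). DPF2 lost its call with cyclic loess (0.11, adjusted p = 0.0537), further quantile normalization (0.082, 0.125), median centring (0.12, 0.0577) and the replicate block (0.12, 0.0997), and ran from 0.10 to 0.15 with 1 array left out. ACTL6A ran from -0.20 to -0.050 with 1 array left out. Adding 32 to the signals moved the ratio shifts of SMARCA2/SMARCA4 to 1.55, ACTL6B/ACTL6A to 1.77, DPF1/PHF10 to 1.66, DPF1/DPF2 to 0.81 and DPF3/DPF2 to 0.15. A further quantile normalization moved SMARCA2/SMARCA4 to 1.80, DPF3/PHF10 to 0.96 and DPF3/DPF2 to 0.17, and called 1 neuronal marker lower and 9 higher, without SNAP25 (0.0985, adjusted p = 0.21). The count was also 9 without SAHA replicate 2, SAHA replicate 3 or control replicate 2. For these shifts the cause was not tested beyond the construction of the alternative, as an added constant compresses dim signals. Calls over all genes ran from 10190 to 11582. Same-numbered arrays did not deviate together (correlations -0.03, -0.17 and -0.0042). That gives no sign of a pairing by number, but with 3 arrays per group it cannot exclude one. The replicate block, with 5520 genes higher and 5081 lower, changed no other member's call.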
